A study of Mus musculus with 54 samples.

Results

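Serum response factor (Srf) and 9 of its actin-cytoskeleton targets, namely Actb, Acta2, Actg2, Myl9, Tagln, Cnn1, Cnn2, Csrp1 and Vcl, were measured in H2K mouse myogenic progenitors with and without emerin. The 10 genes were chosen by name, with earlier results of these data known. Their NCBI gene numbers were found in all 27 deposited tables, which together list 19653 genes. H2K cells are conditionally immortalized mouse muscle progenitors that stop dividing and fuse into myotubes in differentiation medium. RNA from 54 samples was sequenced, in 18 groups of 3 labelled replicates, from 6 lines on days 0, 1 and 2 of differentiation. The lines were wildtype, EMD-/y, which lacks emerin, and 4 lines made from the EMD-/y cells by lentiviral transduction with wildtype emerin (+EMD) or with emerin carrying a change found in Emery-Dreifuss muscular dystrophy (S54F, Δ95–99 or Q133H). Wildtype and EMD-/y progenitors came from different mice, and every line but wildtype descends from the EMD-/y cells. In all comparisons with wildtype, emerin and other differences between these cell sources cannot be told apart. The 4 transduced lines were selected with puromycin, at doses that differed between lines. For RNA the mutant lines were plated at a higher density than wildtype and EMD-/y cells, and that of +EMD for RNA is not given in the sources used here. By the study's Western blots, proliferating Q133H cells held more emerin than wildtype cells, and the other transduced lines held levels similar to wildtype. A vector-only line was not analysed here. Transduction, selection, plating density and the form and amount of emerin therefore cannot be told apart in the 4 transduced lines. The promoter that drives the transduced emerin, and whether each line is 1 clone, are not given in the sources used here.

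Srf is a transcription factor that binds DNA at the CArG box, a short A/T-rich motif between a pair of C and a pair of G bases. Its coactivators, the myocardin-related transcription factors (MRTF), bind monomeric actin and are held out of the nucleus by it. When monomers are built into filaments, MRTF is released, enters the nucleus and joins Srf on genes for actins and actin-binding proteins. The ternary complex factors (Elk genes) join Srf on a second set of targets, the immediate-early genes. Emerin, a protein of the inner nuclear membrane, binds actin filaments and is known to affect where MRTF is found in the cell. In skeletal muscle progenitors, differentiation replaces the cytoplasmic actins with sarcomeric ones.

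The promoters below are shown because Srf binds the CArG box, written here as CC, then any 6 bases that are A or T, then GG, a motif that reads alike on both strands. RefSeq promoter windows (250 bases before to 50 after a transcription start, GRCm38.p6) were on hand for 7 of the 10 genes. Boxes were found in 4 of these 7 genes, which were chosen as known Srf targets, and in 488 of all 27025 genes with a window (1.81%). Capitals mark the boxes. The Srf stretch holds 2 of them, which start 82 and 62 bases before the start site, at chr17:46556175-46556284 on the minus strand.
Srf: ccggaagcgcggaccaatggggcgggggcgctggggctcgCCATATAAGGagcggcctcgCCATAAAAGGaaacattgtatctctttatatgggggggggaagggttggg
The Cnn2 box starts 56 bases before the start site, at chr10:79988504-79988593 on the plus strand.
Cnn2: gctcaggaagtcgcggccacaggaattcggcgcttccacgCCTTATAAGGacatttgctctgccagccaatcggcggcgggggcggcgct
The Vcl box starts 227 bases before the start site, at chr14:20929148-20929220 on the plus strand, and has the same letters as the Cnn2 box.
Vcl: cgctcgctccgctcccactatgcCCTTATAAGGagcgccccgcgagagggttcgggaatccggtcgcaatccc
The Myl9 box starts 161 bases before the start site, at chr2:156775263-156775352 on the plus strand.
Myl9: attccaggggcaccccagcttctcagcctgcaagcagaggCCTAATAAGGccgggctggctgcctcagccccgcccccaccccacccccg
These exact letters were not in the windows of Acta2, Cnn1 and Csrp1, which says nothing of boxes with other letters or elsewhere. Tagln, Actb and Actg2 had no entry.

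Each deposited table compares 2 groups and gives 1 normalized count per gene and group, so no spread between replicates can be computed. The 54 columns summed to between 16719491 and 21128040 normalized counts. Levels are given in CPM, here normalized counts per 1000000 of the column sum, averaged over the tables that hold a group, and hold only approximately across tables because each table was normalized on its own. No value was 0 in any table, and a group's value moved toward that of the group it was compared with. For genes under 10 normalized counts, a wildtype value shifted by 0.264 to 0.309 on the log2 scale per log2 unit of the partner's value. The shift was 0.0263 to 0.0339 between 10 and 100 counts and at most 0.00379 over 1000 counts. Among the 10 genes this touched Cnn1 and Actg2, whose level in a group differed by up to 1.70 and 1.44 times between tables, while the largest such ratio for Tagln was 1.12 and for the other 7 genes 1.04. Its cause was not tested. Mouse Emd, the gene that is disrupted, was at 54.8 to 105 CPM in wildtype and at 0.0235 to 0.125 CPM in the other lines, the transduced ones included, so it checks the EMD-/y background and not the transduced emerin.

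The skeletal myogenic identity of the cells was checked with 8 markers, all of which were listed. Their summed level was 1351 to 4018 CPM in Q133H and between 2083 and 10393 CPM in the other 5 lines. Several of the 10 genes are best known from smooth muscle, so markers of smooth muscle and pericytes were read beside them. The 8 markers summed to 306 to 742 CPM over all groups, and Myh11, the myosin heavy chain that defines smooth muscle, did not pass 1.27 CPM. Endothelial markers summed to at most 2.78 CPM and macrophage markers to at most 6.30 CPM. Fibroblast markers summed to 237 to 492 CPM in wildtype, 284 to 1054 in EMD-/y and 228 to 389 in S54F. They summed to 84.0 to 113 CPM in Δ95–99, 44.4 to 61.6 in Q133H and 32.7 to 80.7 in +EMD. Col1a1 reached 1052 CPM, while Pdgfra and Dcn reached at most 3.87 and 2.58 CPM. Lum and Thy1 were under 1 CPM in every group. These sums are therefore in effect the level of Col1a1, and do not show how many fibroblasts a line held. In such bulk samples, fewer cells of a type and less RNA per cell cannot be told apart.

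**Figure D1:**
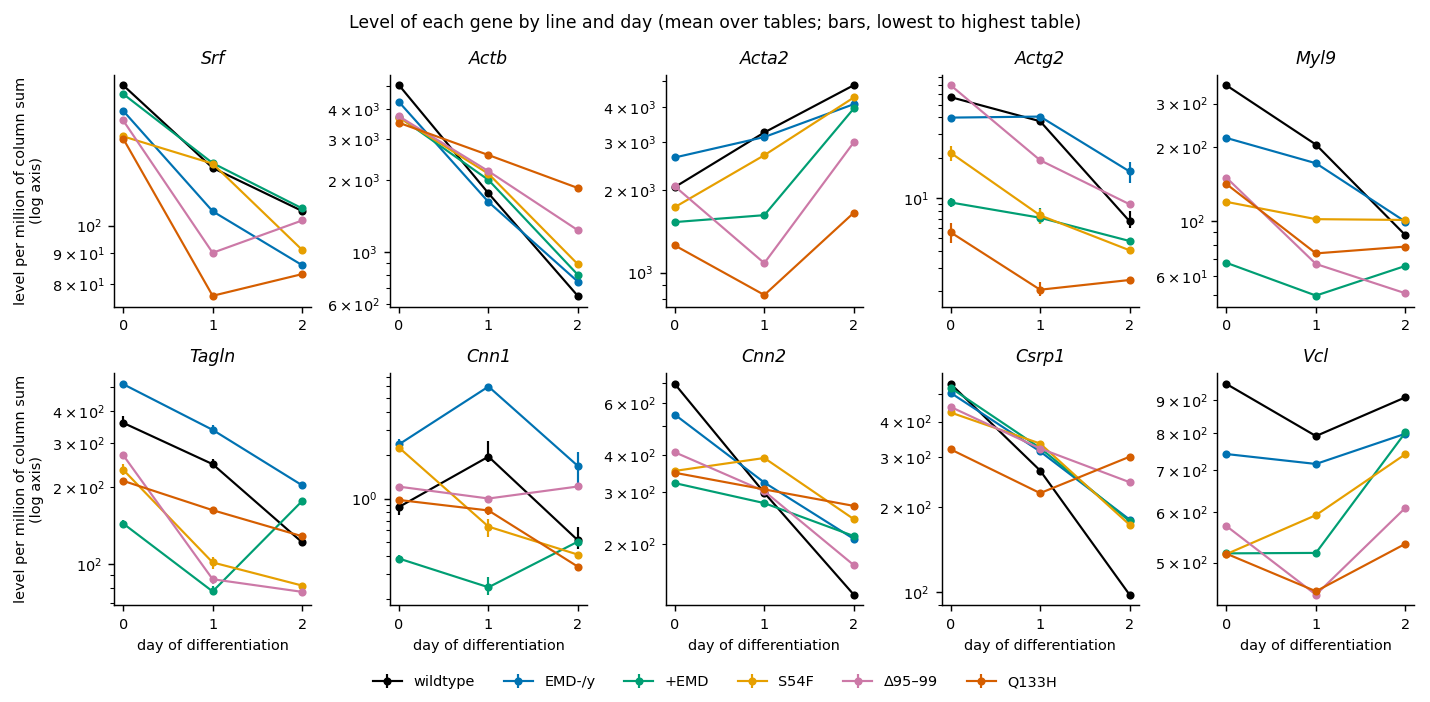
Level of each of the 10 genes (y axis, CPM, log scale) against day of differentiation (x axis) for the 6 lines; points are means over the tables that hold a group and bars run from the lowest to the highest table, not over replicates. Actb falls along the x axis in all 6 lines, Acta2 is highest on day 2 in all 6, and wildtype has the highest Vcl level on all 3 days.

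Per kb of gene length, the median level over the 18 groups was highest for Actb, at 1071 CPM per kb, followed by Acta2 at 912. Csrp1 (179), Cnn2 (169), Vcl (115), Tagln (107) and Myl9 (92.7) formed a middle range, and Srf was at 28.4. Actg2 (6.79) and Cnn1 (0.466) were the lowest. Vcl and Srf varied least, 2.15-fold and 2.24-fold between their highest and lowest groups, and Actg2 and Cnn1 varied most, 34.0-fold and 24.8-fold. The middle order is not firm, since neighbouring medians lie far within these ranges.

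The first question was how the 10 genes moved as the progenitors differentiated, whichever emerin they carried. By the study's methods, cells left growth medium with fetal bovine serum, chick embryo extract and γ-interferon after day 0. They were then kept in differentiation medium with less serum, from horse, at another temperature and carbon dioxide level. The effects of these changes and of differentiation cannot be told apart from day 0 to day 1. Srf fell from day 0 to day 1 together with Actb, Actg2, Myl9, Tagln and Csrp1, and none of the 10 rose. Acta2 and Vcl then rose from day 1 to day 2, while Actb and Cnn2 fell. Each test was a limma moderated one-sample test on 1 log2 ratio per line (n = 6 lines), adjusted over all genes with the Benjamini-Hochberg method. Of all 13231 genes tested, 25.1% were called higher and 26.4% lower from day 0 to day 1, against 0 and 6 of the 10 genes. The shares from day 1 to day 2 were 27.4% and 27.7% of 13242 genes, against 2 higher and 2 lower of the 10. The median mean log2 ratio was -0.58 for the 10 genes and -0.01 for all genes in the first interval, and -0.24 and -0.01 in the second. Because the 10 genes were chosen with earlier results of these data known, these counts and medians are descriptive and do not test the set. Of the 6 lines, 5 share the EMD-/y parent, so these p-values measure the spread between related lines and no replicate enters them.

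**Figure D2:**
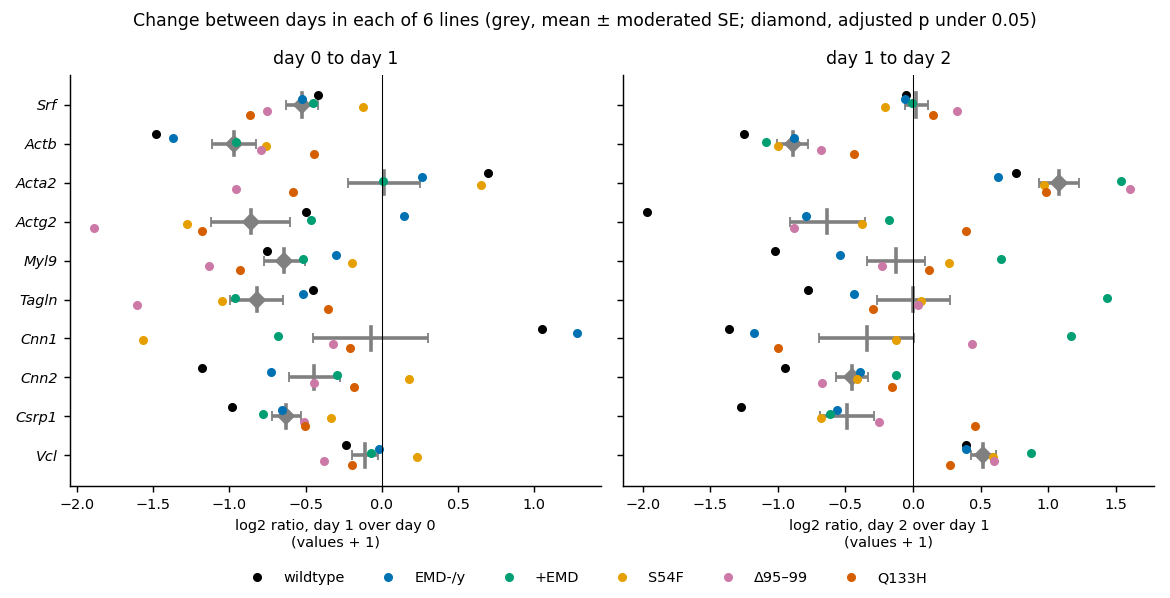
Log2 ratio of the later over the earlier day (x axis, normalized counts + 1) for each gene (y axis), with 1 coloured point per line and the mean ± moderated SE over 6 lines in grey; a diamond marks a limma adjusted p under 0.05. From day 0 to day 1 all points of Srf, Actb, Myl9, Tagln and Csrp1 lie below 0, and from day 1 to day 2 all points of Acta2 and Vcl lie above 0.

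Srf itself, the DNA-binding factor, was at 171 CPM on day 0, 125 on day 1 and 106 on day 2 in wildtype. In EMD-/y it was at 155, 106 and 85.9 CPM, and in +EMD at 166, 127 and 107 CPM. The S54F line was at 141, 127 and 91.1 CPM, Δ95–99 at 150, 90.1 and 102, and Q133H at 140, 76.4 and 83.0. Every line was highest on day 0, and the day 1 and day 2 levels of a line lay closer together than those of day 0 and day 1 in all lines but S54F. The mean log2 ratio from day 0 to day 1 was -0.52 ± 0.10 (moderated SE, n = 6 lines, limma adjusted p = 0.0058), with all 6 lines lower and a range from -0.86 in Q133H to -0.12 in S54F. From day 1 to day 2 the mean was 0.02 ± 0.08 (limma adjusted p = 0.82), with 2 lines higher and 4 lower.

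Actb encodes the cytoplasmic β-actin, whose monomers hold MRTF. In wildtype it went from 90996 to 32611 normalized counts in the table of days 0 and 1, and from 30280 to 12711 in that of days 1 and 2. In EMD-/y the values were 78097 to 30162 and 27072 to 14731, and in Q133H 66456 to 48705 and 48954 to 36201. The other 3 lines lay between wildtype and Q133H in both intervals, and no line went up in either. Actb fell by 0.97 ± 0.15 on the log2 scale from day 0 to day 1 (limma adjusted p = 0.0020) and by 0.89 ± 0.11 from day 1 to day 2 (limma adjusted p = 0.00097), each in 6 of 6 lines.

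Acta2 encodes the smooth muscle α-actin, which skeletal progenitors also express as they differentiate. From day 0 to day 1 the lines went in different directions. The log2 ratio was 0.69 in wildtype, 0.65 in S54F, 0.27 in EMD-/y and 0.01 in +EMD, and it was -0.58 in Q133H and -0.95 in Δ95–99. Their mean was 0.01 ± 0.24 (limma adjusted p = 0.97). Between days 1 and 2 the values were 55819 to 94393 in wildtype, 52275 to 80970 in EMD-/y and 27789 to 80534 in +EMD. They were 47029 to 91887 in S54F, 19684 to 59934 in Δ95–99 and 16028 to 31756 in Q133H. All lines went up, and the day 2 value of Q133H stayed below the day 1 values of wildtype, EMD-/y and S54F. The mean log2 ratio of this interval was 1.08 ± 0.15 (limma adjusted p = 0.0012), a 2.11-fold rise.

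Actg2 encodes the smooth muscle γ-actin and was present at low levels. It went from 1034 to 733 normalized counts in wildtype, 163 to 118 in +EMD, 352 to 144 in S54F, 1323 to 357 in Δ95–99 and 86.4 to 37.7 in Q133H between days 0 and 1. EMD-/y was the exception, at 703 and 779. Actg2 fell by 0.86 ± 0.26 on the log2 scale (limma adjusted p = 0.029), in 5 of 6 lines. This call was lost when S54F (-0.78, adjusted p = 0.083), Δ95–99 (-0.65, adjusted p = 0.060) or Q133H (-0.80, adjusted p = 0.063) was left out of the limma fit. From day 1 to day 2 the mean was -0.63 ± 0.28 (limma adjusted p = 0.088), and it was -0.84 (limma adjusted p = 0.032) without Q133H, the line that went up.

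The actin genes were set beside one another per kb, as shares of 6 actins that also include the cytoplasmic Actg1 and the sarcomeric Acta1 and Actc1. In wildtype, Actb and Actg1 made up 33.7% and 45.4% of the sum on day 0 and 2.24% and 2.94% on day 2. Over the same days Acta1 went from 7.07% to 60.2% and Actc1 from 2.99% to 22.1%, while Acta2 was at 10.3%, 18.7% and 12.5% on days 0, 1 and 2. Acta2 took a larger share on day 1 than on the days around it, although its own level was highest on day 2. In Q133H, Actb still made up 17.1% and Actg1 27.5% on day 2, with Acta1 at 33.8% and Actc1 at 10.1%. On day 1, Q133H (36.6%) and Δ95–99 (28.9%) had the highest shares of Actb, with the other lines between 10.4% and 18.6%. Actg2 never passed 0.934% of the sum. These shares hold 1 value per group and were not tested.

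**Figure D3:**
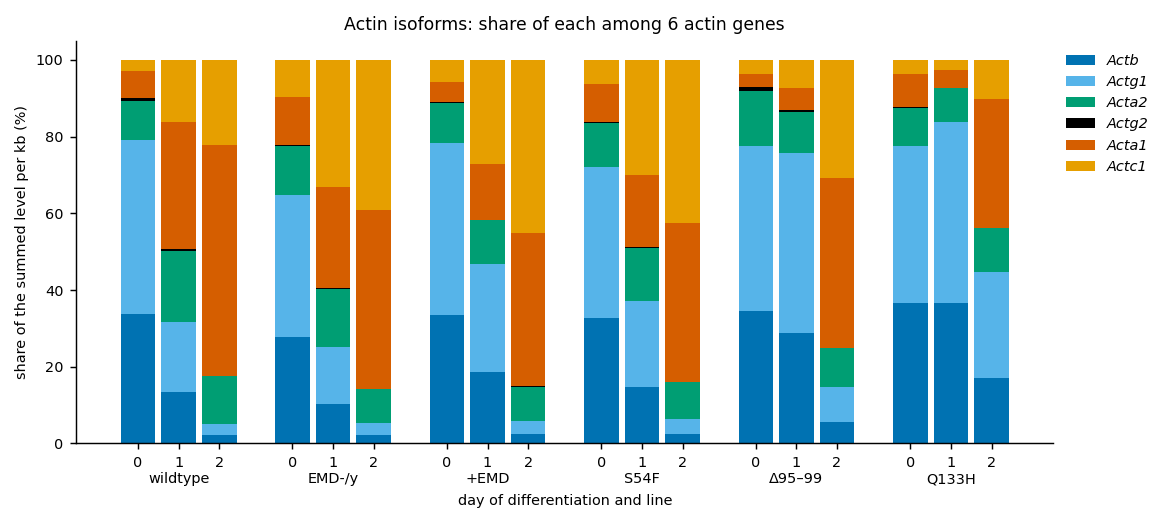
Share of each of 6 actin genes (y axis, percent of their summed level per kb of gene length) in each line and day (x axis); bars hold 1 value per group and no error. The cytoplasmic actins Actb and Actg1 give way to Acta1 and Actc1 by day 2, to the least extent in Q133H, where Actb and Actg1 still make up 17.1% and 27.5%.

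Among the contractile and thin-filament genes, Myl9 encodes a regulatory light chain of non-sarcomeric myosin II. It went from 6412 to 3797 normalized counts in wildtype, 3942 to 3195 in EMD-/y and 1290 to 899 in +EMD between days 0 and 1. The values were 2205 to 1921 in S54F, 2810 to 1277 in Δ95–99 and 2677 to 1407 in Q133H. Every line went down, wildtype stayed above all others on both days, and +EMD stayed below all others. Myl9 fell by 0.64 ± 0.14 on the log2 scale (limma adjusted p = 0.0079). Between days 1 and 2 the lines split, from -1.02 in wildtype to 0.65 in +EMD, with a mean of -0.13 ± 0.21 (limma adjusted p = 0.63).

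Tagln encodes transgelin, an actin-bundling protein known as SM22. Its log2 ratio from day 0 to day 1 lay between -1.61 in Δ95–99 and -0.35 in Q133H, below 0 in 6 of 6 lines, with a mean of -0.82 ± 0.17 (limma adjusted p = 0.0077). From day 1 to day 2 the mean was 0.00 ± 0.27 (limma adjusted p = 0.99), and the +EMD line stood apart at 1.44, from 1313 to 3554 normalized counts, with the others between -0.78 and 0.06. Cnn1 encodes calponin 1, which binds actin in smooth muscle, and had the lowest median level per kb of the 10 genes. Between days 0 and 1 it went from 16.0 to 34.3 normalized counts in wildtype and 47.3 to 116 in EMD-/y, and from 42.2 to 13.6 in S54F and 6.85 to 3.88 in +EMD. The Cnn1 means over lines were -0.07 ± 0.38 (limma adjusted p = 0.88) and -0.34 ± 0.35 (limma adjusted p = 0.42) in the 2 intervals, with lines on both sides of 0 each time.

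Cnn2, the calponin of non-muscle cells, Csrp1, a LIM protein that binds α-actinin and zyxin, and Vcl, the focal adhesion protein vinculin, link actin filaments to each other and to adhesions. Csrp1 fell by 0.63 ± 0.09 on the log2 scale from day 0 to day 1 (limma adjusted p = 0.0020), in 6 of 6 lines and from 9800 to 4962 normalized counts in wildtype. In the second interval its mean was -0.49 ± 0.20 (limma adjusted p = 0.075) and, without Q133H, -0.68 (limma adjusted p = 0.0089). Q133H was the line in which Csrp1 went up, from 4269 to 5851. Cnn2 had a mean of -0.44 ± 0.17 in the first interval (limma adjusted p = 0.066) and of -0.57 (limma adjusted p = 0.036) without S54F, the line that went up, from 6529 to 7372. Cnn2 fell by 0.45 ± 0.12 in the second interval (limma adjusted p = 0.016), in 6 of 6 lines, between -0.95 in wildtype and -0.12 in +EMD. Vcl was at -0.11 ± 0.09 in the first interval (limma adjusted p = 0.32). It rose from day 1 to day 2 by 0.52 ± 0.09 (limma adjusted p = 0.0031), from 13584 to 17809 in wildtype, 8881 to 16269 in +EMD and 8626 to 10413 in Q133H, the latter 2 being its largest and smallest rise. With columns divided by their sums, the median of all genes moved to -0.19 from day 1 to day 2, 30.1% rather than 49.7% of called genes were higher, and Vcl was at 0.34 (limma adjusted p = 0.012). Csrp1 (-0.67, adjusted p = 0.038) and Actg2 (-0.82, adjusted p = 0.046) passed limma's threshold on that scale. The direction of Srf and Tagln in this interval flipped on it, to -0.16 and -0.18, both uncalled.

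A pair of these genes, Tagln and Vcl, share reads with neighbours wherever counting ignores strand, which the sources used here do not state. The annotated exons of Tagln overlap the antisense gene Gm48529 over 1241 of 1988 bases, and those of Vcl overlap Ap3m1 over 2090 of 8191 bases. No transcript of another gene matched 1 of the 10 genes at 97% identity or more over 200 bases, apart from Ap3m1 in this overlap. The closest was the pseudogene Gm15725, at 93.6% identity to Actb. Actg1, used in the actin shares, matched the pseudogenes Gm12715 (99.6%), Gm8399 (98.6%), Actg-ps1 (98.3%) and Gm16385 (97.6%). The effect of such matches on the Actg1 shares was not tested.

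The second question was how each line differed from wildtype on the same day. Myl9, Actg2, Tagln and Acta2 were the genes most often at least 2-fold lower in the transduced lines, mainly on days 0 and 1, and Cnn1 was about 2-fold higher in EMD-/y. Over the 15 tables, Vcl was lower than wildtype in 15, between -1.02 and -0.13 on the log2 scale. Srf was lower in 15, between -0.82 and -0.01, although 3 of these (+EMD on days 1 and 2, and S54F on day 1) were higher with columns divided by their sums. Of the 13299 genes with a mean of at least 10, 6.48% were lower in all 15 tables. Each wildtype group enters 5 of these tables and all lines compared with it descend from the EMD-/y cells, so the 15 values are not independent.

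**Figure D4:**
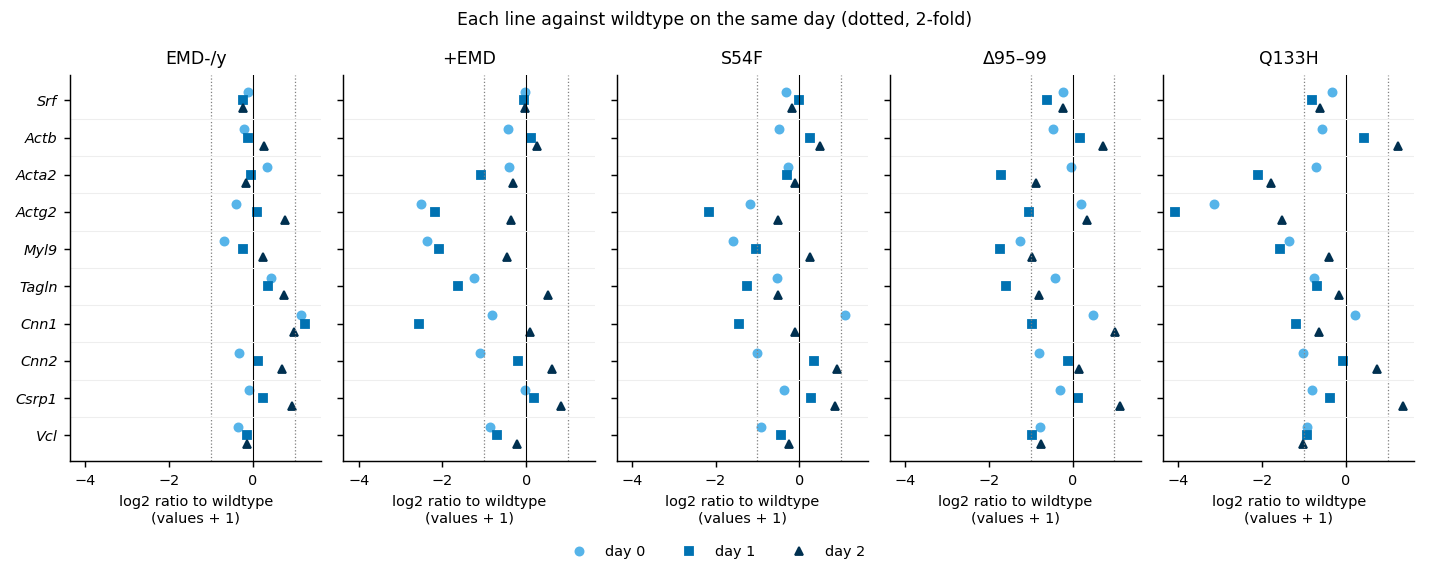
Log2 ratio of each line to wildtype on the same day (x axis, normalized counts + 1) for each gene (y axis), 1 panel per line and 1 point per day, with dotted lines at a 2-fold difference; each point is 1 table with no replicate error. EMD-/y stays within 2-fold of wildtype apart from Cnn1, while Actg2 and Myl9 reach -4.09 in Q133H and -2.38 in +EMD.

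A limma moderated test on the 3 daily ratios of a line asked which differences held over days, with p-values that measure the spread between days (n = 3 days). Cnn1 was called higher in EMD-/y, and no other of the 10 genes was called in any line. In EMD-/y 6.15% of 13277 genes were called higher and 4.06% lower, against 1 and 0 of the 10 genes, 3 of which had an unadjusted p under 0.05. In +EMD the shares were 5.13% and 5.87%, with 0 of the 10 genes called and 4 at an unadjusted p under 0.05. In S54F they were 3.13% and 2.95%, with 0 called and 3 at an unadjusted p under 0.05, and in Δ95–99 2.23% and 2.08%, with 0 called and 3 under it. In Q133H they were 1.31% and 1.71%, with 0 called and 5 under it. On simulated data this test found 59 of 96 genes changed 2-fold in EMD-/y but 2 of 104 in +EMD, 34 of 100 in S54F, 2 of 85 in Δ95–99 and 0 of 93 in Q133H. The simulated ratios were independent normal draws with each gene's SD over the 3 days, which can hold real changes between days. In that setting 2-fold differences were mostly missed in 3 of the lines, and these shares hold for that setting only. The simulation changed 200 genes per test, fewer than the 402 (Q133H) to 1459 (+EMD) called in the real fits. The Benjamini-Hochberg cutoff is stricter when fewer genes change, so the real tests may have found a larger share. A p that missed the threshold does not show that a gene was alike.

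Cnn1 in EMD-/y was at 40.3 normalized counts against 17.5 in wildtype on day 0, 109 against 45.7 on day 1 and 23.3 against 11.4 on day 2. EMD-/y was higher on all 3 days, by 2.30-, 2.39- and 2.05-fold as deposited and 2.23-, 2.36- and 1.97-fold after 1 was added to both values, with a mean log2 ratio of 1.12 ± 0.08 (limma adjusted p = 0.0098). The call was lost without day 1 (adjusted p = 0.083 in limma) and in 1 fit over the 5 lines (adjusted p = 0.35 in limma), and Cnn1 fails a minimum mean of 50. Tagln, the other gene higher in EMD-/y on all 3 days, was at 0.36 to 0.75 (limma adjusted p = 0.065). Beside these, Cspg4 (2.57), Rgs5 (2.37), Mcam (1.68) and Lmod1 (0.70), 4 of the 7 smooth muscle and pericyte markers tested, were called higher in EMD-/y on the same scale and test. The rest of those tested, Pdgfrb (0.12), Notch3 (-0.19) and Synpo2 (-0.29), were not called in EMD-/y. Cspg4 was also called higher in +EMD (3.49), S54F (2.22) and Δ95–99 (1.49), where Tagln and Myl9 were lower than wildtype on days 0 and 1. In +EMD, 2 of 6 such markers tested were called higher and 0 lower, with Lmod1 at -1.65 and Pdgfrb at -1.03. The part of these markers in the Cnn1 and Tagln values was not tested.

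Counts of genes at least 2-fold from wildtype on values + 1, with no test, were set beside the share of all genes with a mean of at least 10. In EMD-/y Cnn1 alone was past 2-fold on days 0 and 1 (8.10% and 6.68% of all genes) and none of the 10 on day 2 (7.08%), where Cnn1 was under 2-fold only because 1 was added to both values. In +EMD there were 4 of 10 on day 0 (16.0%), 5 on day 1 (18.4%) and 0 of 9 on day 2 (17.3%). In S54F there were 4 on day 0 (10.9%), 4 on day 1 (11.1%) and 0 of 9 on day 2 (9.83%). In Δ95–99 there was 1 on day 0 (11.4%), 4 on day 1 (19.8%) and 2 on day 2 (21.0%). In Q133H there were 3 on day 0 (13.6%), 4 on day 1 (22.9%) and 5 of 9 on day 2 (32.2%). Cnn1 had a mean under 10 in the day 2 tables with 9 genes. The members past 2-fold were lower than wildtype in all transduced lines on days 0 and 1, apart from Cnn1 on day 0 in S54F. On day 2 those past 2-fold were Cnn1 and Csrp1, both higher, in Δ95–99, and in Q133H Csrp1 and Actb, higher, with Acta2, Vcl and Actg2, lower.

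Myl9 was at 1256 normalized counts in +EMD against 6533 in wildtype on day 0, 908 against 3872 on day 1 and 1206 against 1649 on day 2. In Δ95–99 it was at 2776, 1190 and 899 against 6645, 3984 and 1750, and in Q133H at 2579, 1342 and 1352 against 6649, 3996 and 1794. In S54F the values were 2159, 1906 and 1923 against 6504, 3891 and 1622. The gap to wildtype was smallest on day 2 in each of the 4 lines, and S54F was then above wildtype. EMD-/y, the parent of these lines, was 1.61-fold lower on day 0 and 1.18-fold higher on day 2. The mean log2 ratios were -1.64 ± 0.43 in +EMD (limma adjusted p = 0.084), -1.32 ± 0.21 in Δ95–99 (limma adjusted p = 0.055), -1.12 ± 0.30 in Q133H (limma adjusted p = 0.16) and -0.79 ± 0.39 in S54F (limma adjusted p = 0.31). Without day 2, Myl9 in +EMD was at -2.23 (limma adjusted p = 0.027).

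Actg2 in Q133H was at 118 normalized counts against 1064 on day 0, 42.3 against 738 on day 1 and 42.4 against 123 on day 2, which is 8.94-, 17.1- and 2.86-fold lower on values + 1. In +EMD it was at 183, 152 and 87.2 against 1054, 689 and 113, and in S54F at 440, 154 and 77.5 against 997, 693 and 111. Δ95–99 differed from these, with 1274 against 1105 on day 0, 353 against 725 on day 1 and 156 against 122 on day 2. The lines Q133H, +EMD and S54F were lower on all 3 days, and Δ95–99 on day 1 only. The mean log2 ratios were -2.92 ± 0.55 in Q133H (limma adjusted p = 0.093), -1.69 ± 0.47 in +EMD (limma adjusted p = 0.095), -1.29 ± 0.34 in S54F (limma adjusted p = 0.12) and -0.16 ± 0.33 in Δ95–99 (limma adjusted p = 0.79). Without day 2, Actg2 in +EMD was at -2.35 (limma adjusted p = 0.027). Because values in these tables lean toward the group they are compared with, such ratios may be smaller than those of the unadjusted means.

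Acta2 was at 23067, 14836 and 28708 normalized counts on days 0, 1 and 2 in Q133H, against 38008, 63267 and 98479 in wildtype. The mean log2 ratio was -1.53 ± 0.34 (limma adjusted p = 0.12), and without day 0 it was -1.94 (limma adjusted p = 0.024). In Δ95–99, Acta2 was at 37640 against 38324 on day 0, near the wildtype value, and 3.28-fold lower on day 1 and 1.84-fold lower on day 2. In +EMD it was 2.11-fold lower on day 1 and at most 1.33-fold lower on the other days, and S54F stayed within 1.24-fold. The skeletal myogenic markers read beside these went both ways. Their median mean log2 ratio was -1.49 in Q133H, with 0 of 8 called by limma and 5 at an unadjusted p under 0.05. It was -0.57 in Δ95–99 with 2 called higher, 0.07 in +EMD with 2 called higher and -0.02 in S54F with 1 called higher, and 0 were called lower in any of these lines. Those called were Pax7 and Myf5, transcription factors of undifferentiated muscle progenitors. They were at 3.18 and 2.51 in Δ95–99 and at 3.33 and 2.04 in +EMD, and Myf5 was at 1.05 in S54F. Pax7 and Myf5 were also called higher in EMD-/y, the parent of these lines, at 2.16 and 0.76. The part of the 8 markers in the Acta2 values was not tested.

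Vcl in Q133H was at 9403, 8159 and 9181 normalized counts against 17816, 15435 and 18638 in wildtype, a difference of 1.89- to 2.03-fold on each day. The mean log2 ratio was -0.95 ± 0.18 (limma adjusted p = 0.092), -0.83 ± 0.14 in Δ95–99 (limma adjusted p = 0.064), -0.59 ± 0.18 in +EMD (limma adjusted p = 0.11), -0.54 ± 0.17 in S54F (limma adjusted p = 0.16) and -0.21 ± 0.08 in EMD-/y (limma adjusted p = 0.19). The 3 daily values of Q133H and Δ95–99 lay within a narrow band, while those of +EMD went from -0.87 on day 0 to -0.23 on day 2. Over the same days S54F went from -0.92 to -0.26 and EMD-/y from -0.35 to -0.13. Tagln went from 2743 against 6528 on day 0 and 1464 against 4562 on day 1 to 3267 against 2263 on day 2 in +EMD, lower and then higher than wildtype. Cnn2, Csrp1 and Actb showed lower values than wildtype on day 0 and higher values on day 2 in all 5 lines, with Actb in Q133H at -0.56 on day 0 and 1.26 on day 2. None of these 3 genes was called in any line, with limma adjusted p between 0.35 and 0.95. That test asks for a mean difference over days, in which lower and higher days cancel, so it cannot decide on such a reversal.

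The other genes of the pathway were read from lists, with Mrtfa, Mrtfb and Nr4a1 named after their values were seen. Mrtfa, the coactivator that actin monomers hold, fell by 0.34 ± 0.06 on the log2 scale from day 0 to day 1 (limma adjusted p = 0.0029), and Mrtfb was at -0.01 ± 0.07 (limma adjusted p = 0.93). The counts of these lists stand beside the shares of all genes, and are descriptive, since the lists were chosen with earlier results of these data known. These were 25.1% higher and 26.4% lower in the first interval, and 27.4% and 27.7% in the second. Of 7 SRF coactivators and cofactors, 0 were called higher and 3 lower in the first interval, and 1 higher and 2 lower of 6 tested in the second. Elk3 fell in both, by 0.64 and 0.94, and Elk4 fell by 0.54 in the first, while Scai, a repressor of MRTF, rose by 0.25 in the second. Of 8 immediate-early targets, 1 was called higher and 3 lower in the first interval, with Fos at 0.64 and Egr2 at -1.63, and 0 and 1 in the second, with Egr2 at -0.68.

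Of 20 other cytoskeletal SRF targets, 0 were called higher and 11 lower from day 0 to day 1, led by Tgfb1i1 (-1.08) and Fblim1 (-0.95), both adaptors at focal adhesions. In the second interval 8 were called higher and 10 lower, with the sarcomeric actins Acta1 (2.98) and Actc1 (2.30) the largest. Of 18 regulators of actin assembly, 5 were called higher and 8 lower in the first interval and 2 and 9 in the second. Of all genes, 25.1% were called higher and 26.4% lower in the first interval, and 27.4% and 27.7% in the second. Gsn, which severs filaments, rose by 1.53 and the small GTPase Rhob by 1.14 in the first, and Cfl2, the muscle cofilin, rose by 1.09 while the formin Diaph3 fell by 1.79 in the second. Against wildtype, 3 immediate-early targets were called lower in +EMD, Egr1 (-1.20), Egr3 (-1.10) and Nr4a1 (-0.92), with Egr3 also called lower in Δ95–99 (-1.60) and Egr2 in Q133H (-1.42). Actc1 was called higher in EMD-/y (1.34) and Gsn lower in +EMD (-0.98). Among all genes, 5.87% were called lower in +EMD, 2.08% in Δ95–99 and 1.71% in Q133H, and 6.15% higher in EMD-/y. No SRF coactivator or cofactor was called by limma in any line, with 1 to 3 of them at an unadjusted p under 0.05 in each.

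**Figure D5:**
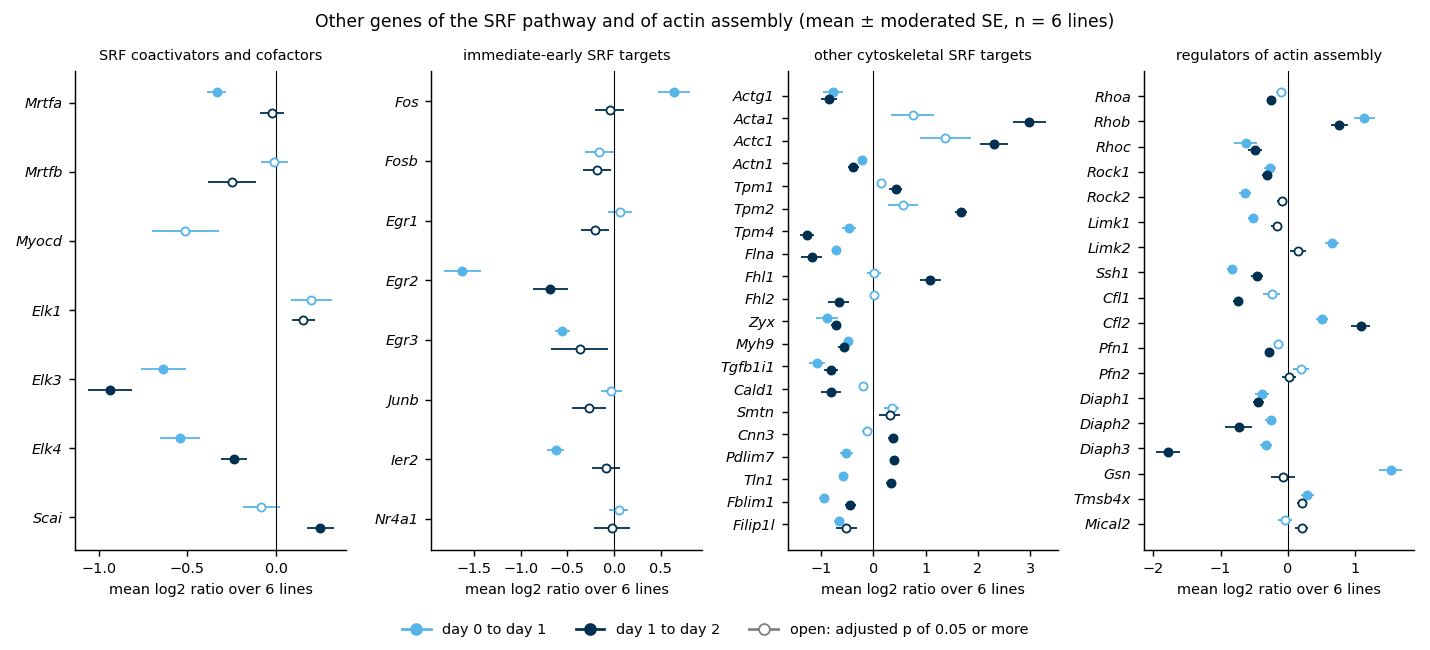
Mean log2 ratio over 6 lines (x axis, ± moderated SE) of the later over the earlier day for each gene of 4 lists (y axis), from day 0 to day 1 in light blue and from day 1 to day 2 in dark blue; filled points have a limma adjusted p under 0.05. In the list of other cytoskeletal targets, Acta1 and Actc1 stand far to the right from day 1 to day 2, at 2.98 and 2.30, and no filled light blue point lies above 0.

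The patterns of the 10 genes over the 18 groups were compared as Pearson correlations of log2 levels, which share lines, wildtype groups and tables and carry no test. The 9 targets were between -0.05 (Acta2) and 0.70 (Csrp1) with Srf. Of the 45 pairs among the 10 genes, the closest was Csrp1 and Actb (r = 0.92), followed by Cnn2 and Actb (0.87), Cnn2 and Csrp1 (0.86), Acta2 and Vcl (0.83), and Tagln and Myl9 (0.83), and the most unlike was Acta2 with Actb (-0.68). Among 11031 genes with at least 10 normalized counts in every column, the gene most like Actb was Jak1 (r = 0.99), the one most like Acta2 was Trim54 (0.96), and the one most like Csrp1 was Hhat (0.96). Those most like the rest were Skiv2l for Srf (0.95), Wdr1 for Cnn2 (0.93), Kctd5 for Vcl (0.91), Tmem198b for Myl9 (0.88), Slit2 for Actg2 (0.85), Myl9 for Tagln (0.83) and Ldlrad4 for Cnn1 (0.73).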

How the data were processed

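Poly-A RNA of 54 samples was sequenced on a DNBseq platform. Reads were filtered with SOAPnuke, mapped to mm10 with HISAT2 and compared with DESeq2, per the study's methods and the submitters' processing notes, with versions, annotation and strand setting not given in the sources used here. The signal deposited by the authors is 1 normalized count per gene and group in each of 27 tables, 15 of a line against wildtype and 12 between days, with 0 columns per sample. The study describes 3 technical replicates for each of 2 biological replicates, and which of these the 3 labelled replicates are is not stated. Further columns with the authors' fold changes, p-values, adjusted p-values and calls were not used. Gene numbers were matched to RefSeq symbols (GRCm38.p6) for 17824 of 17855 numeric identifiers, and 1798 predicted genes have no number.

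Ratios were taken within a table as log2 of values + 1, a scale that understates changes of low genes, for genes with a mean of at least 10. They were tested with limma 3.58.1 in R 4.3.3 (one-sample moderated test, Benjamini-Hochberg over all genes, called when adjusted p was under 0.05). Fits were checked on simulated ratios with 200 changed genes, as far as the report quotes them. Levels per kb used the gene lengths in the tables. Motifs were searched with Python 3.11.15 and transcripts of GENCODE vM21 compared with minimap2. The 10 genes and all lists were chosen with earlier results of these data known. Named from each other list were the 2 called genes with the largest mean ratio in each interval, the 2 with the largest median ratio to wildtype among those called in a line, and for each of the 10 genes the 1 with the highest correlation.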

Additional observations from a re-analysis of the deposited data

How the results depend on the processing

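No paired analysis was possible because the tables hold 1 value per group and no column per sample. For the same reason no replicate could be left out, and single lines or days were left out instead. Of the values of the 10 genes under alternatives of the limma tests, 740 kept their direction and their side of the threshold, 22 passed it where the main value had not, 5 no longer passed it and 35 changed sign. Those that changed a call by leaving out a line or day are given above, beside each gene. The genes called from day 0 to day 1 numbered 5 to 6 and those from day 1 to day 2 4 to 6 over the fits that left out a line. Over all genes, these fits called from 5415 of 13230 (without S54F) to 7146 of 13245 (without Q133H) in the first interval. In the second they called from 5673 of 13253 (without S54F) to 7958 of 13231 (without Q133H). For the lines against wildtype, leaving out a day gave 0 to 1 called genes in EMD-/y, 0 to 2 in +EMD, 0 to 0 in S54F and Δ95–99, and 0 to 1 in Q133H. In 1 limma fit over the 5 lines, which pools their spread, 0 of the 10 genes were called in EMD-/y, 3 in +EMD (Myl9, Vcl and Actg2), 1 in S54F (Vcl), 3 in Δ95–99 (Srf, Myl9 and Vcl) and 5 in Q133H (Srf, Acta2, Myl9, Vcl and Actg2). Of all 12971 genes in that fit, 735 were called in EMD-/y, 4004 in +EMD, 1297 in S54F, 2980 in Δ95–99 and 4684 in Q133H. A minimum mean of 50 left 0 called in EMD-/y, since Cnn1 was not tested. In Δ95–99, Myl9 was the 1 gene called with a pseudocount of 5 (adjusted p = 0.047) and with predicted genes left out (adjusted p = 0.048).

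The number of gene and line pairs at least 2-fold from wildtype, 13 on day 0, 18 on day 1 and 7 on day 2, became 23, 25 and 23 at 1.5-fold, and 4, 10 and 1 at 3-fold. With levels averaged over tables, an alternative chosen after seeing the data, it was 12, 17 and 8. The shares of all genes past 1.5-fold and 3-fold are not given here. These counts therefore show only how the number moved with the setting, and not whether the 10 genes differed from other genes.

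The values that changed sign were not called in any fit. With a line left out, Cnn1 ran from -0.35 to 0.22 and Acta2 from -0.11 to 0.21 between days 0 and 1, and Srf from -0.035 to 0.071 and Tagln from -0.28 to 0.091 between days 1 and 2. Without wildtype, Acta2 was at -0.12 in the first interval and Myl9 at 0.053 in the second. With columns divided by their sums, Srf was at -0.16 and Tagln at -0.18 between days 1 and 2, Actb at 0.014 in +EMD and Cnn2 at 0.010 in Q133H. With a day left out, values against wildtype in EMD-/y ran from -0.11 to 0.15 (Acta2), -0.46 to 0.00059 (Myl9), -0.17 to 0.074 (Actb), -0.10 to 0.40 (Cnn2) and -0.15 to 0.43 (Actg2), and in +EMD from -0.16 to 0.18 (Actb) and -0.65 to 0.21 (Cnn2). In S54F they ran from -0.77 to 0.50 (Cnn1), -0.32 to 0.62 (Cnn2), -0.040 to 0.57 (Csrp1) and -0.12 to 0.36 (Actb). In Δ95–99 they ran from -0.46 to 0.014 (Cnn2), -0.42 to 0.28 (Actg2), -0.25 to 0.75 (Cnn1), -0.092 to 0.63 (Csrp1) and -0.15 to 0.46 (Actb), and in Q133H from -0.55 to 0.33 (Cnn2), -0.59 to 0.49 (Csrp1) and -0.068 to 0.84 (Actb).

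Over all genes, the single limma fit over the 5 lines tested 12971 and called 735 in EMD-/y, 4004 in +EMD, 1297 in S54F, 2980 in Δ95–99 and 4684 in Q133H, against 1355, 1459, 808, 574 and 402 in the separate fits. Leaving out 1 day gave 193 to 767, 96 to 587, 90 to 290, 50 to 98 and 0 to 1625 where the count moved by over 1.5 times, and a minimum mean of 50 gave 354 in Δ95–99 and 211 in Q133H. Without day 1, Q133H had 0 calls in limma. The cause was not tested. Depth per sample is unknown, so precision could not be read from counts.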
